A study of Mus musculus with 24 samples.

Results

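The genes described here encode the enzymes that make nucleotides, serine and the carbon units carried by folate. The 33 members were chosen by name from 24506 genes in a table of exon reads. They were sorted into a serine and folate arm of 9 genes, a purine arm of 11, a pyrimidine arm of 5, a deoxynucleotide arm of 6 and a methyl cycle arm of 2. RNA had been sequenced from pro-B cells of mouse fetal liver (C57BL6/J strain), in 14 libraries, with 2 libraries in each of 7 groups, within a series of 24 samples. All cells were grown on OP9 stromal cells with KIT ligand, FLT3 ligand and interleukin-7, and all were infected with the retroviral vector pMiG. The groups were Ebf1-deficient (Ebf1-KO) cells with a vector carrying Ebf1, with one carrying Pax5 or with the empty vector, then Pax5-deficient (Pax5-KO) cells with Ebf1, Pax5 or the empty vector, and wild-type (WT) cells with the empty vector. Ebf1-KO, Pax5-KO and WT without a named vector stand below for the empty-vector groups. The vector supplies the factor from a virus, not from its own locus, and the labels do not give the age of the fetuses or the part of each gene that was deleted.

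EBF1 and PAX5 are transcription factors that set up and hold the B lineage, EBF1 acting before PAX5. Dividing lymphoid precursors need nucleotides for DNA and RNA and make most of them anew. The purine ring is built on a ribose phosphate through inosine monophosphate, which is turned into adenine or guanine nucleotides, while the pyrimidine ring is built first and then joined to ribose. Serine is made from a glycolytic intermediate and gives a carbon to folate, and folate carries that carbon to the purine ring and to thymidylate. Ribonucleotide reductase makes deoxynucleotides from ribonucleotides, and the methyl cycle turns methionine into the methyl donor S-adenosylmethionine. MYC, whose control by EBF1 and PAX5 the series was designed to examine, is a known activator of many of these genes in other cells.

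Libraries held 18.6 to 23.6 M exon reads (M, mega) in replicate 1 and 16.1 to 42.1 M in replicate 2. All 33 members passed the filter on low counts, and they were tested together with all 14550 genes that passed. Levels are counts per M reads (CPM) after scaling between libraries. Pax5 read 429 and 399 CPM in Ebf1-KO with Pax5 and 746 and 439.6 in Pax5-KO with Pax5, against 2.24 and 2.49 with the empty vector in Ebf1-KO cells and 20.1 and 12.3 in Pax5-KO cells. Ebf1 read 857 and 893 CPM in Ebf1-KO with Ebf1, against 244 and 282 in Ebf1-KO, so the reads that remain do not check the knockout label. Early B markers were summed over 12 of a list of 14, leaving out Ebf1 and Pax5, which the vectors supply. They were 3560 and 3916 CPM in Ebf1-KO with Ebf1, 1073 and 1177 in Ebf1-KO with Pax5 and 154 and 172 in Ebf1-KO. In Pax5-KO cells they were 2772 and 2802 CPM with Ebf1, 5792 and 6654 with Pax5 and 1516 and 1621 with the empty vector, and in WT cells 10391 and 9528. Early B markers were thus highest in WT and lowest in Ebf1-KO, where the marker Vpreb3 had 0 counts, which allows up to 3, in both libraries. The sum of 13 myeloid markers was 168 to 761 CPM in the libraries of the 6 knockout groups and 40.7 and 42.3 in WT. The sum of 12 T and NK markers was 218 to 984 CPM in the knockout groups and 37.7 and 21.9 in WT. Erythroid marker sums reached at most 31.7 CPM. The sum of 10 stromal markers was 44.7 to 231 CPM in the knockout groups and 32.6 and 16.4 in WT. Of the 5 stromal markers tested, Thy1, which is also on the T and NK list, was called higher in both knockouts than in WT. The other 4 were not called there. Sparc was called lower with Ebf1 than with Pax5 in Ebf1-KO cells, where 5.46% of all genes were. In Pax5-KO cells Fn1 was called lower with Ebf1 and Thy1 with Pax5, where 1.85% and 2.4% of all genes were. Dcn, a marker of fibroblast-like cells, was at 0 in all 7 groups, but carry-over of OP9 cells was not tested. In these bulk libraries fewer cells of a type and less RNA per cell cannot be told apart.

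Promoter sequence was matched for 30 of the 33 members, as 300 bases from 250 before to 50 after the start of the gene (RefSeq, GRCm38.p6, the assembly also called mm10). Those of 5 are printed 5′ to 3′ on the strand of the gene, for the peak, change or motif named with each. Adsl (chr15:80948240-80948539, plus strand) is shown because an EBF1 peak reaches into it, and its capitals mark the 8 bases inside that peak. Peaks also covered 258 bases of the Rrm1 window, 141 of the Psph window and 1 of the Mthfd1l window, which are not printed. Impdh1 (chr6:29216315-29216614, minus strand) is the member that changed most, and no capitals stand in it because its nearest EBF1 peak lies just downstream of the window. Atic (chr1:71556906-71557205, plus strand) and Tyms (chr5:30073576-30073875, minus strand) carry the E-box CACGTG, which MYC is known to bind, in capitals, and Atic also a CCAAT box. Dctpp1 (chr7:127260618-127260917, minus strand) carries CCAAT boxes on the opposite strand, read as ATTGG, in capitals.
Adsl: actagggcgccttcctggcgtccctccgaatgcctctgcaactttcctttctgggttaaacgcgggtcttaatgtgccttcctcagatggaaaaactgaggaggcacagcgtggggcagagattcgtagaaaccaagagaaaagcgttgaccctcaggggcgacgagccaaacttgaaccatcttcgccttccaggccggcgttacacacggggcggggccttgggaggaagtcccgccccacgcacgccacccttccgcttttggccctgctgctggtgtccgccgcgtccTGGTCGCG
Impdh1: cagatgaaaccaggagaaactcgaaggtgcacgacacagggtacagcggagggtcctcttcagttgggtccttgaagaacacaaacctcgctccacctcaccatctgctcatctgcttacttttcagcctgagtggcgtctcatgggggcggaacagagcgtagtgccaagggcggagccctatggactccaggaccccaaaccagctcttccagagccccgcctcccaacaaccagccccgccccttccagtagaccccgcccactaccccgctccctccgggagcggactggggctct
Atic: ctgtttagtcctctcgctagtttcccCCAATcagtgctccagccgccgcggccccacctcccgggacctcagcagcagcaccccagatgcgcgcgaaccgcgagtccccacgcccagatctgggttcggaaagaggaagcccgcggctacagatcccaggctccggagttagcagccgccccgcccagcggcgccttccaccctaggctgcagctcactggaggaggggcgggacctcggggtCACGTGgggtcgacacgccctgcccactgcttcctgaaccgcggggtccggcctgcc
Tyms: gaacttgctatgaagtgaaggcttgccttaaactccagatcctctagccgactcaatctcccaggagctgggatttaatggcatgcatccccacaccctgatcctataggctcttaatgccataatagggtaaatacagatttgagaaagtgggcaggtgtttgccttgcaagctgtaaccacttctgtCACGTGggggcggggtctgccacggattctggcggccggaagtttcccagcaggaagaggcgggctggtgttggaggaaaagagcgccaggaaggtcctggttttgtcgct
Dctpp1: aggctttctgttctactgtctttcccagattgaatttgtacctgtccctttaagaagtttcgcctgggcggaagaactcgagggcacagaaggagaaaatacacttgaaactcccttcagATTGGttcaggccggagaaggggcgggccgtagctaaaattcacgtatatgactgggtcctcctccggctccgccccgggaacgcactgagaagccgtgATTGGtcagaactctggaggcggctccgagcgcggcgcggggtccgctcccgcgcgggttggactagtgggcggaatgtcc

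The E-box CACGTG, searched on both strands (it reads the same on each), stood in 5 of the 30 promoters, or 16.7%, against 7.15% of all 32851 promoters in the table. Counted from the start used for each promoter, it lay 203 bases before it in Paics, 110 in Impdh2, 61 in Tyms, 18 in Nme1 and 7 in Atic. For Nme1 that start lies 249 bases downstream of the start in the count table, so its E-box lies inside the gene as counted. For Impdh2 it lies 65 bases upstream of the start in the count table. The core of the EBF1-type motif, CCCNNGGG, which also reads the same on both strands, stood in 4 of 30 (13.3%; Mthfd1l, Prps1, Gart and Ctps), against 13.7% of all promoters. The longer form of that core, with T before it and A after it, stood in 0 of 30, against 0.904% of all. The ATF4-type motif TGATGNAA, on either strand, stood in 1 of 30 (3.33%; Prps1), against 3.97% of all. CCAAT, on either strand, stood in 16 of 30 (53.3%), against 37.4% of all. These shares describe the letters in the windows and were not tested.

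Most of these genes were well expressed in every group. Per kilobase of transcript the highest levels, averaged over the 7 groups, were 242 CPM per kb for Paics, which carries out a pair of steps of purine ring synthesis, 226 for Shmt2, which moves the carbon of serine to folate in mitochondria, 132 for Mat2a, which makes S-adenosylmethionine, 120 for Rrm2, the small subunit of ribonucleotide reductase, and 101 for Rrm1, its large subunit. The lowest were 0.251 CPM per kb for Aldh1l2, a mitochondrial folate dehydrogenase, 4.38 for Dhodh, which oxidises dihydroorotate, 7.95 for Ahcy, which clears S-adenosylhomocysteine, and 8.82 for Impdh2. Group means of 1 gene differed by 1.74-fold for Paics at the narrow end and by 21.8-fold for Impdh1. Aldh1l2 reached at most 4.63 CPM in any library and had 0 counts in 1 library, so nothing is read from it.

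**Figure D1:**
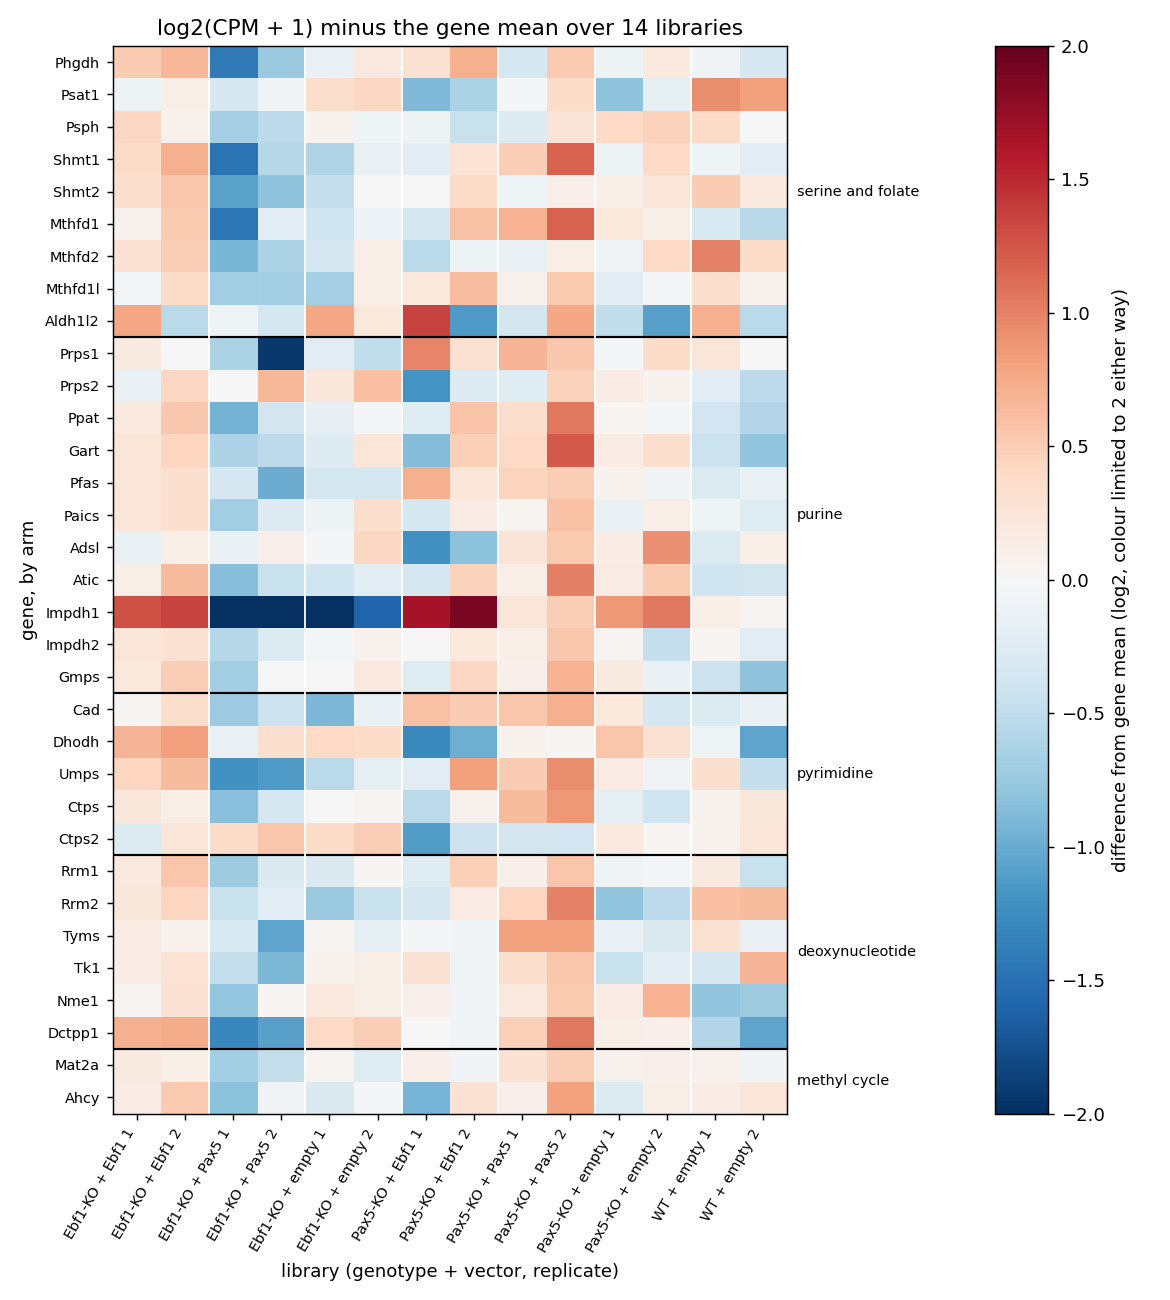
Level of the 33 genes in each of the 14 libraries, as log2(CPM + 1) minus the mean of the gene over all libraries (colour), with genes in rows by arm and libraries in columns by group. Both libraries of Ebf1-KO with Pax5 are blue for most genes, and Impdh1 is darkest in Ebf1-KO with Pax5 and in Ebf1-KO.

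The group with the lowest mean was Ebf1-KO with Pax5 for 23 of the 33 genes, against 19.9% of all tested genes. For 13 of them both of its libraries lay below all other libraries, a pattern shown by 4.47% of all tested genes. Those 13 were Phgdh, Psph, Shmt2, Mthfd2 and Mthfd1l of the serine and folate arm, Prps1, Atic and Impdh1 of the purine arm, Umps of the pyrimidine arm, Tyms, Tk1 and Dctpp1 of the deoxynucleotide arm, and Mat2a. The group with the highest mean was Pax5-KO with Pax5 for 17 genes, against 13.8% of all tested genes. Both of its libraries lay above all others for 4 genes (Mthfd1, Ctps, Tyms and Mat2a), against 2.82% of all. The same vector therefore stood at the bottom of the order in 1 knockout and at the top in the other. WT had the highest mean for Psat1 and Mthfd2 and the lowest for Gart, Gmps and Nme1.

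Impdh1 (chr6:29200437-29216364, minus strand, mm10) encodes inosine monophosphate dehydrogenase 1, which commits purines to guanine nucleotides, and had the largest fold changes of the members with the Ebf1 vector in Ebf1-KO cells. It read 164 and 174 CPM in Ebf1-KO with Ebf1, 7.71 and 13.7 in Ebf1-KO with Pax5, and 13.9 and 21.8 in Ebf1-KO. It read 216 and 251 CPM in Pax5-KO with Ebf1, 80.1 and 95.7 in Pax5-KO with Pax5 and 124 and 141 in Pax5-KO, against 73.4 and 70.2 in WT. The libraries of Ebf1-KO with Ebf1 did not overlap those of the other Ebf1-KO groups, and the highest values of all were those of Pax5-KO with Ebf1.

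Impdh1 fell in Ebf1-KO relative to WT (log2 fold change -2.01 ± 0.28 SE, adjusted p = 0.000133, edgeR quasi-likelihood test with Benjamini-Hochberg adjustment, as for all adjusted p-values below). It was 9.46-fold higher with the Ebf1 vector than with the empty one in Ebf1-KO cells (3.24 ± 0.29, adjusted p = 8.85e-06). With the Pax5 vector in the same cells the difference of -0.73 ± 0.28 did not pass (adjusted p = 0.183). In Pax5-KO cells the Ebf1 vector gave 0.82 ± 0.27 (adjusted p = 0.109) and the Pax5 vector -0.59 ± 0.27 (adjusted p = 0.32), neither of which passed. The Ebf1 effect was larger in Ebf1-KO than in Pax5-KO cells by 2.42 ± 0.38 (adjusted p = 0.00575), a test passed by 0.577% of all genes in this direction and by 0.0344% (and 0 members) in the other. It did not pass without replicate 1 of Ebf1-KO (2.12, adjusted p = 0.0533). Impdh1 was lower in Ebf1-KO than in Pax5-KO (-2.89 ± 0.29, adjusted p = 1.73e-05). It was higher in Pax5-KO than in WT (0.88 ± 0.27, adjusted p = 0.0421), a call lost when any 1 of the 4 libraries was left out (0.79 to 0.98, adjusted p up to 0.252) or when libraries were scaled by total counts.

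Of the other 10 purine genes, Adsl was the 1 called in any of the 6 comparisons of either knockout with WT or of either vector with the empty one. Adsl (chr15:80948490-80970947, plus strand) encodes adenylosuccinate lyase, which acts both in ring synthesis and on the branch to adenine nucleotides. It read 20.2 and 26.8 CPM in Pax5-KO with Ebf1, below all other libraries, against 53.4 and 91.2 in Pax5-KO. It fell with the Ebf1 vector in Pax5-KO cells (-1.62 ± 0.31, adjusted p = 0.0106) and was the 1 of 33 members called lower there, where 1.85% of all genes were, with 0 called higher, where 1.75% were. Without replicate 2 of Pax5-KO the call was lost (-1.18, adjusted p = 0.163), and with only the compared groups in the fit the adjusted p was 0.192. In Ebf1-KO cells Adsl read 43.5 and 52.0 CPM with Ebf1, against 46.9 and 64.7 with the empty vector (-0.22 ± 0.30, adjusted p = 0.971), and the difference between the Ebf1 effects in the 2 genotypes was 1.39 ± 0.43 (adjusted p = 0.303), so it was not shown to differ.

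Ppat (chr5:76913249-76951578, minus strand) encodes the amidotransferase that opens purine synthesis. It read 228 and 288 CPM in Ebf1-KO with Ebf1, 102 and 153 in Ebf1-KO with Pax5 and 177 and 193 in Ebf1-KO. In Pax5-KO cells it read 168 and 295 CPM with Ebf1, 253 and 410.5 with Pax5 and 204 and 194 with the empty vector, and in WT 152 and 131. The Ebf1-KO groups thus did not overlap, but neither the Ebf1 effect (0.48 ± 0.29, adjusted p = 0.674) nor the Pax5 effect (-0.54 ± 0.29, adjusted p = 0.385) passed. Ppat and Paics overlap by 277 bases on opposite strands, and strand is not given as a setting, so they can share reads.

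Impdh2 encodes the isozyme that most dividing cells use. It read 16.6 and 17.2 CPM in Ebf1-KO with Ebf1, 9.01 and 11.3 with Pax5 in those cells, 13.5 and 14.8 in Ebf1-KO and 14.3 and 11.7 in WT, and 9.65 to 20.6 across the Pax5-KO groups. It passed in no comparison, and its values are uncertain because near-identical copies may take some of its reads. The remaining purine genes Prps1, Prps2, Gart, Pfas, Paics, Atic and Gmps passed in none of the 6 comparisons. Paics ranged from 361 to 878 CPM over all libraries, Gmps, which makes guanosine monophosphate, from 95.9 to 274, and Gart, which carries out 3 ring-building steps, from 58.0 to 251. In those 6 comparisons the 11 purine genes had median log2 fold changes from -0.48, with Pax5 in Ebf1-KO, to 0.49, in Pax5-KO against WT.

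**Figure D2:**
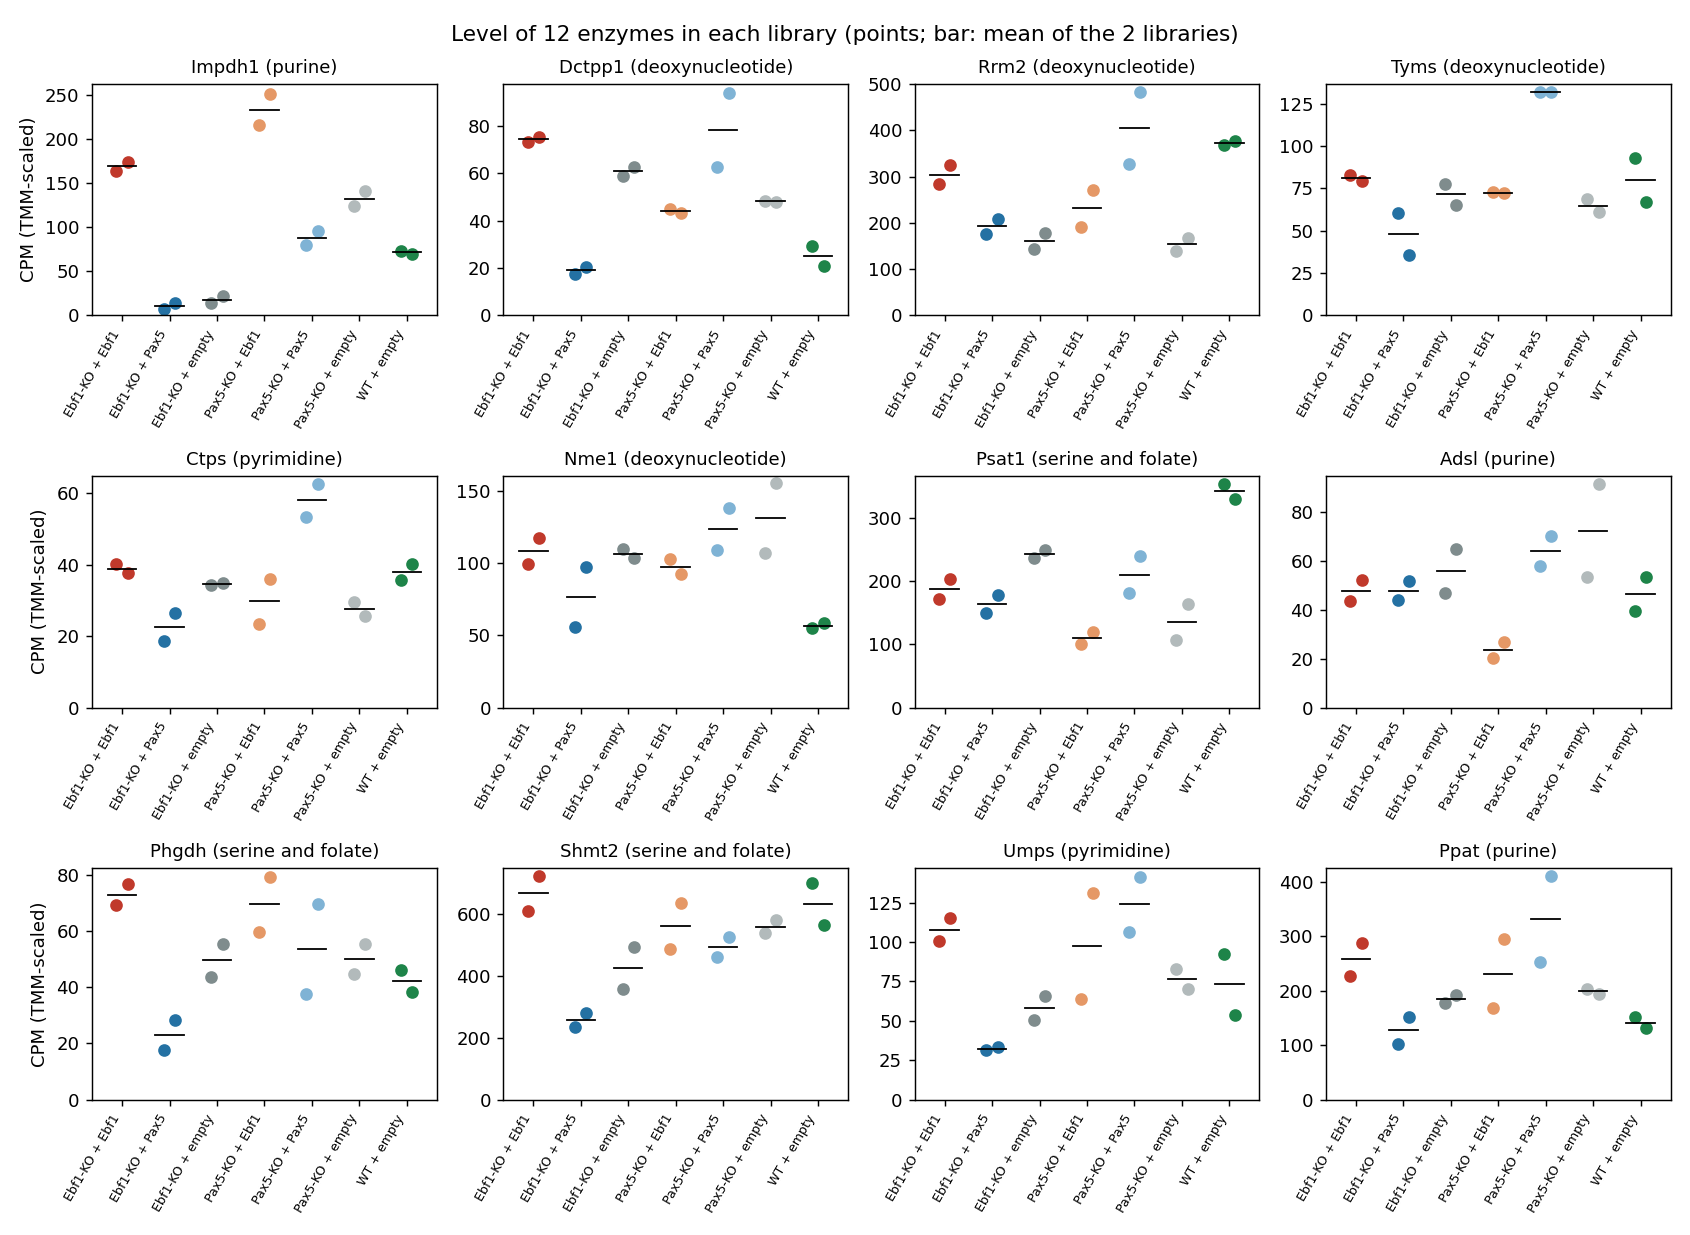
Level of 12 enzymes in each library (points, CPM) with the mean of the 2 libraries (bar), by group from Ebf1-KO with Ebf1 on the left to WT on the right. Impdh1 is high with Ebf1 in both knockouts, Dctpp1 is low in Ebf1-KO with Pax5 and in WT, and Rrm2 is high in Pax5-KO with Pax5 and in WT.

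In the serine and folate arm, Psat1 (chr19:15905123-15925059, minus strand), which encodes the aminotransferase of the serine pathway, was the 1 member of the arm called in a comparison with WT or the empty vector. It read 106 and 163 CPM in Pax5-KO and 237 and 249 in Ebf1-KO, against 354 and 330 in WT, whose libraries lay above all others. It fell in Pax5-KO relative to WT (-1.34 ± 0.23, adjusted p = 0.00106). The difference in Ebf1-KO was -0.49 ± 0.23 and did not pass (adjusted p = 0.183). With the Pax5 vector in Pax5-KO cells it read 181 and 239 CPM, above both empty-vector libraries, without passing (0.64 ± 0.23, adjusted p = 0.172), and with Ebf1 99.9 and 119.

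Phgdh (chr3:98313171-98339969, minus strand) encodes the dehydrogenase that commits 3-phosphoglycerate to serine. It read 69.2 and 76.6 CPM in Ebf1-KO with Ebf1, 17.5 and 28.4 in Ebf1-KO with Pax5, and 43.7 and 55.5 in Ebf1-KO. In Pax5-KO cells it read 59.7 and 79.3 CPM with Ebf1, 37.6 and 69.5 with Pax5 and 44.6 and 55.3 with the empty vector, and in WT 46.0 and 38.5. The 3 Ebf1-KO groups did not overlap one another, and the Pax5 vector had the lowest values. The Pax5 effect in Ebf1-KO cells was -1.11 ± 0.33 and did not pass (adjusted p = 0.0796), nor did the Ebf1 effect (0.56 ± 0.32, adjusted p = 0.641).

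Shmt2 (chr10:127517123-127522444, minus strand) read 612 and 726 CPM in Ebf1-KO with Ebf1, 235 and 281 in Ebf1-KO with Pax5, and 358 and 494 in Ebf1-KO. In Pax5-KO cells it read 488 and 637 CPM with Ebf1, 463 and 527 with Pax5 and 539 and 580.3 with the empty vector, and in WT 701 and 566. The 3 Ebf1-KO groups did not overlap, with an Ebf1 effect of 0.65 ± 0.22 (adjusted p = 0.18) and a Pax5 effect of -0.72 ± 0.22 (adjusted p = 0.0823), neither of which passed. Shmt2 shares 34 bases with Ndufa4l2 on the other strand.

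Mthfd2 (chr6:83305704-83317604, minus strand), a mitochondrial folate dehydrogenase known to be high in dividing cells, read 63.2 and 73.0 CPM in Ebf1-KO with Ebf1, 26.9 and 32.8 in Ebf1-KO with Pax5, and 40.1 and 56.6 in Ebf1-KO. In Pax5-KO cells it read 35.3 and 48.3 CPM with Ebf1, 46.7 and 56.7 with Pax5 and 49.1 and 68.3 with the empty vector, and in WT 104 and 66.8. The Ebf1-KO groups did not overlap, and WT was the group with the highest mean. The Ebf1 effect of 0.49 ± 0.30 (adjusted p = 0.668) and the Pax5 effect of -0.69 ± 0.30 (adjusted p = 0.245) in Ebf1-KO cells did not pass. Psph, Shmt1, Mthfd1 and Mthfd1l passed in none of the 6 comparisons. Mthfd1, the cytosolic folate enzyme of 3 activities, read 89.4 and 126 CPM in Pax5-KO with Pax5, above all other libraries, against 63.4 and 59.6 in Pax5-KO. Mthfd1l, which releases formate in mitochondria, ranged from 64.3 to 162 CPM, and Psph, the last enzyme of serine synthesis, from 25.9 to 57.3.

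In the pyrimidine arm no member passed in the 6 comparisons. Cad (chr5:31054780-31078479, plus strand), which encodes the protein of the first 3 steps, read 129.8 and 162 CPM in Ebf1-KO with Ebf1, 76.1 and 94.4 in Ebf1-KO with Pax5, and 67.5 and 116 in Ebf1-KO. In Pax5-KO cells it read 192 and 181 CPM with Ebf1, 187 and 208 with Pax5 and 147 and 101 with the empty vector, and in WT 105 and 115. The Ebf1 effect in Ebf1-KO cells was 0.67 ± 0.26 (adjusted p = 0.297), and the Pax5 effect was -0.10 ± 0.26 (adjusted p = 0.912), with a sign that changed with the library left out (-0.46 to 0.36).

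Ctps (chr4:120539868-120570276, minus strand) encodes CTP synthase 1, which makes the cytidine nucleotide of RNA and of lipid synthesis. It read 53.5 and 62.7 CPM in Pax5-KO with Pax5, above all other libraries, against 29.6 and 25.8 in Pax5-KO, and 18.7 and 26.6 in Ebf1-KO with Pax5, against 34.3 and 34.8 in Ebf1-KO. Neither the Pax5 effect in Pax5-KO cells (1.07 ± 0.30, adjusted p = 0.06) nor that in Ebf1-KO cells (-0.61 ± 0.29, adjusted p = 0.321) passed alone. Their difference did, at 1.68 ± 0.42 (adjusted p = 0.0416), a call lost when any 1 of the 8 libraries was left out (1.38 to 1.95, adjusted p up to 0.219) and with scaling by total counts. Dhodh, singled out after its values were seen, read 3.18 and 4.17 CPM in Pax5-KO with Ebf1, against 14 and 11.5 in Pax5-KO, without passing (-1.79 ± 0.49, adjusted p = 0.0605).

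In the deoxynucleotide arm Rrm2, Dctpp1, Nme1 and Tyms were called in at least 1 of the 6 comparisons, which share WT or empty-vector libraries. Rrm2 (chr12:24708254-24714146, plus strand), whose level is known to limit ribonucleotide reductase and to peak in S phase, read 143 and 177 CPM in Ebf1-KO cells and 139 and 168 in Pax5-KO cells, against 369 and 377 in WT. It fell in Ebf1-KO (-1.22 ± 0.24, adjusted p = 0.00229) and in Pax5-KO (-1.28 ± 0.24, adjusted p = 0.00185), comparisons that share the WT libraries. It read 327 and 484 CPM in Pax5-KO with Pax5 and rose over the empty vector (1.40 ± 0.24, adjusted p = 0.00293), a call lost without replicate 2 of that group (1.06, adjusted p = 0.0731). It read 283 and 325 CPM in Ebf1-KO with Ebf1, higher than with the empty vector (0.92 ± 0.24, adjusted p = 0.0486), a call lost when any 1 of the 4 libraries was left out (0.75 to 1.11, adjusted p up to 0.515) and with scaling by total counts or by DESeq2 size factors. Rrm2 read 176 and 208 CPM in Ebf1-KO with Pax5 (0.26 ± 0.23, adjusted p = 0.664) and 191 and 271 in Pax5-KO with Ebf1 (0.59 ± 0.23, adjusted p = 0.175).

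Dctpp1 (chr7:127256959-127260667, minus strand) encodes a pyrophosphatase that clears dCTP and modified deoxycytidine nucleotides. It read 73.4 and 75.3 CPM in Ebf1-KO with Ebf1, 17.5 and 20.5 in Ebf1-KO with Pax5, and 58.9 and 62.9 in Ebf1-KO. It read 44.9 and 43.1 CPM in Pax5-KO with Ebf1, 62.6 and 94.1 in Pax5-KO with Pax5 and 48.5 and 47.9 in Pax5-KO, against 29.5 and 20.9 in WT. The Pax5 vector thus gave the lowest values among Ebf1-KO cells and the highest among Pax5-KO cells.

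Dctpp1 fell with Pax5 in Ebf1-KO cells (-1.68 ± 0.27, adjusted p = 0.00218), the 1 member called lower there, where 0.935% of all genes were, and 0 were called higher, where 3.15% were. With Pax5 in Pax5-KO cells it did not pass (0.70 ± 0.26, adjusted p = 0.196). The Pax5 effects in Pax5-KO and Ebf1-KO cells differed by 2.38 ± 0.38 (adjusted p = 0.0031), and both this call and the fall held with each library left out in turn. Dctpp1 was higher in Ebf1-KO than in WT (1.27 ± 0.27, adjusted p = 0.00409) and in Pax5-KO than in WT (0.93 ± 0.27, adjusted p = 0.0292). The first of these calls was lost without replicate 2 of WT (1.05, adjusted p = 0.0719), and the second without that library or without either Pax5-KO library (0.73 to 1.21 over the 4 left out, adjusted p up to 0.267) and with only the compared groups in the fit.

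Tyms (chr5:30058200-30073625, minus strand) encodes thymidylate synthase, which takes a carbon from folate to make the thymidine nucleotide. It read 132 and 132 CPM in Pax5-KO with Pax5, above all other libraries, 72.7 and 72.4 with Ebf1 in the same genotype, and 68.5 and 61.2 with the empty vector. In Ebf1-KO cells it read 82.8 and 79.6 CPM with Ebf1, 60.5 and 35.5 with Pax5 and 77.6 and 65.4 with the empty vector, and in WT 92.9 and 67.1. It rose with Pax5 in Pax5-KO cells (1.03 ± 0.26, adjusted p = 0.0374), where with Rrm2 it made 2 of 33 members called higher, where 1.64% of all genes were, with 0 called lower, where 2.4% were. That call was lost when any 1 of the 4 libraries was left out (0.92 to 1.11, adjusted p up to 0.296) and with scaling by total counts. With Pax5 in Ebf1-KO cells the difference was -0.58 ± 0.26 (adjusted p = 0.271), and with Ebf1 there 0.18 ± 0.26 (adjusted p = 0.972). The 2 Pax5 effects differed by 1.60 ± 0.36 (adjusted p = 0.0286), a call kept only without replicate 1 of Ebf1-KO with Pax5 among the 8 libraries left out (1.26 to 1.96, adjusted p up to 0.125).

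Nme1 (chr11:93958925-93968521, minus strand) encodes a nucleoside diphosphate kinase, which passes phosphate between nucleotides. It read 109.7 and 104 CPM in Ebf1-KO cells and 107 and 156 in Pax5-KO cells, against 55.1 and 58.3 in WT. It was higher in Ebf1-KO (0.91 ± 0.27, adjusted p = 0.0323), a call lost when any 1 of the 4 libraries was left out (0.88 to 0.96, adjusted p up to 0.15). It was also higher in Pax5-KO (1.22 ± 0.27, adjusted p = 0.0069), a call lost without replicate 2 of Pax5-KO or either WT library (0.92 to 1.46 over the 4 left out, adjusted p up to 0.116). Its reads may be shared with a near-identical copy, and so may those of Ahcy. Tk1, which encodes the thymidine kinase of the salvage route, read 31.6 and 23.5 CPM in Ebf1-KO with Pax5, below all other libraries, against 46.7 and 48.3 in Ebf1-KO. Rrm1 ranged from 238 to 572 CPM. Neither passed in the 6 comparisons, and neither did Mat2a (226 to 508 CPM) or Ahcy (9.55 to 34.1 CPM) of the methyl cycle.

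Across the arms, the share of members called against WT lay near that of all genes. In Ebf1-KO against WT, Dctpp1 and Nme1 were the 2 of 33 called higher, where 8.02% of all genes were, and Impdh1 and Rrm2 the 2 called lower, where 6.65% were. In Pax5-KO against WT, Dctpp1, Nme1 and Impdh1 were the 3 called higher, where 8.65% of all genes were, and Rrm2 and Psat1 the 2 called lower, where 5% were. Impdh1 thus lay below WT in Ebf1-KO and above it in Pax5-KO. The median log2 fold change of the 33 genes was -0.09 in Ebf1-KO and 0.16 in Pax5-KO, beside 0.03 and 0.04 for all tested genes. Between the knockouts, Impdh1 was the 1 of 33 called lower in Ebf1-KO than in Pax5-KO, where 2.94% of all genes were, and 0 were called higher, where 1.15% were.

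In Ebf1-KO cells most members leaned one way with each vector, though few passed alone. With Ebf1 in Ebf1-KO cells 28 of the 33 had a log2 fold change above 0, with a median of 0.40, beside 0.00 for all genes. Impdh1 and Rrm2 were the 2 called higher, where 2.21% of all genes were, and 0 were called lower, where 0.763% were. Of the 33, 25 had both Ebf1 libraries above both empty-vector libraries, where 24% of all genes had. With Pax5 in Ebf1-KO cells 31 of the 33 lay below 0, with a median of -0.54, beside -0.01 for all genes. There 24 had both Pax5 libraries below both empty-vector libraries, where 25.4% of all genes had. Within replicate number 1 the Pax5 library was lower for 29 members and 50.3% of all genes, and within number 2 for 30 members and 51.8% of all genes. The 2 comparisons share the Ebf1-KO libraries, so their opposite signs are not independent.

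With Pax5 in Pax5-KO cells 25 of 33 lay above 0, with a median of 0.44, beside 0.01 for all genes, and 19 did not overlap, where 23.5% of all genes did not. With Ebf1 in Pax5-KO cells 18 lay above 0 and 15 below, with a median of 0.03. That balance turned with the scaling, to 14 above and 19 below when libraries were scaled by total counts. It also differed by replicate number, with 22 members lower within number 1, as 55.6% of all genes were, and 19 higher within number 2, as 47.3% of all genes were. The libraries of Pax5-KO with Ebf1 were the least alike of any group (Pearson r of log2 CPM 0.895 over all genes and 0.880 over the members, across genes).

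**Figure D3:**
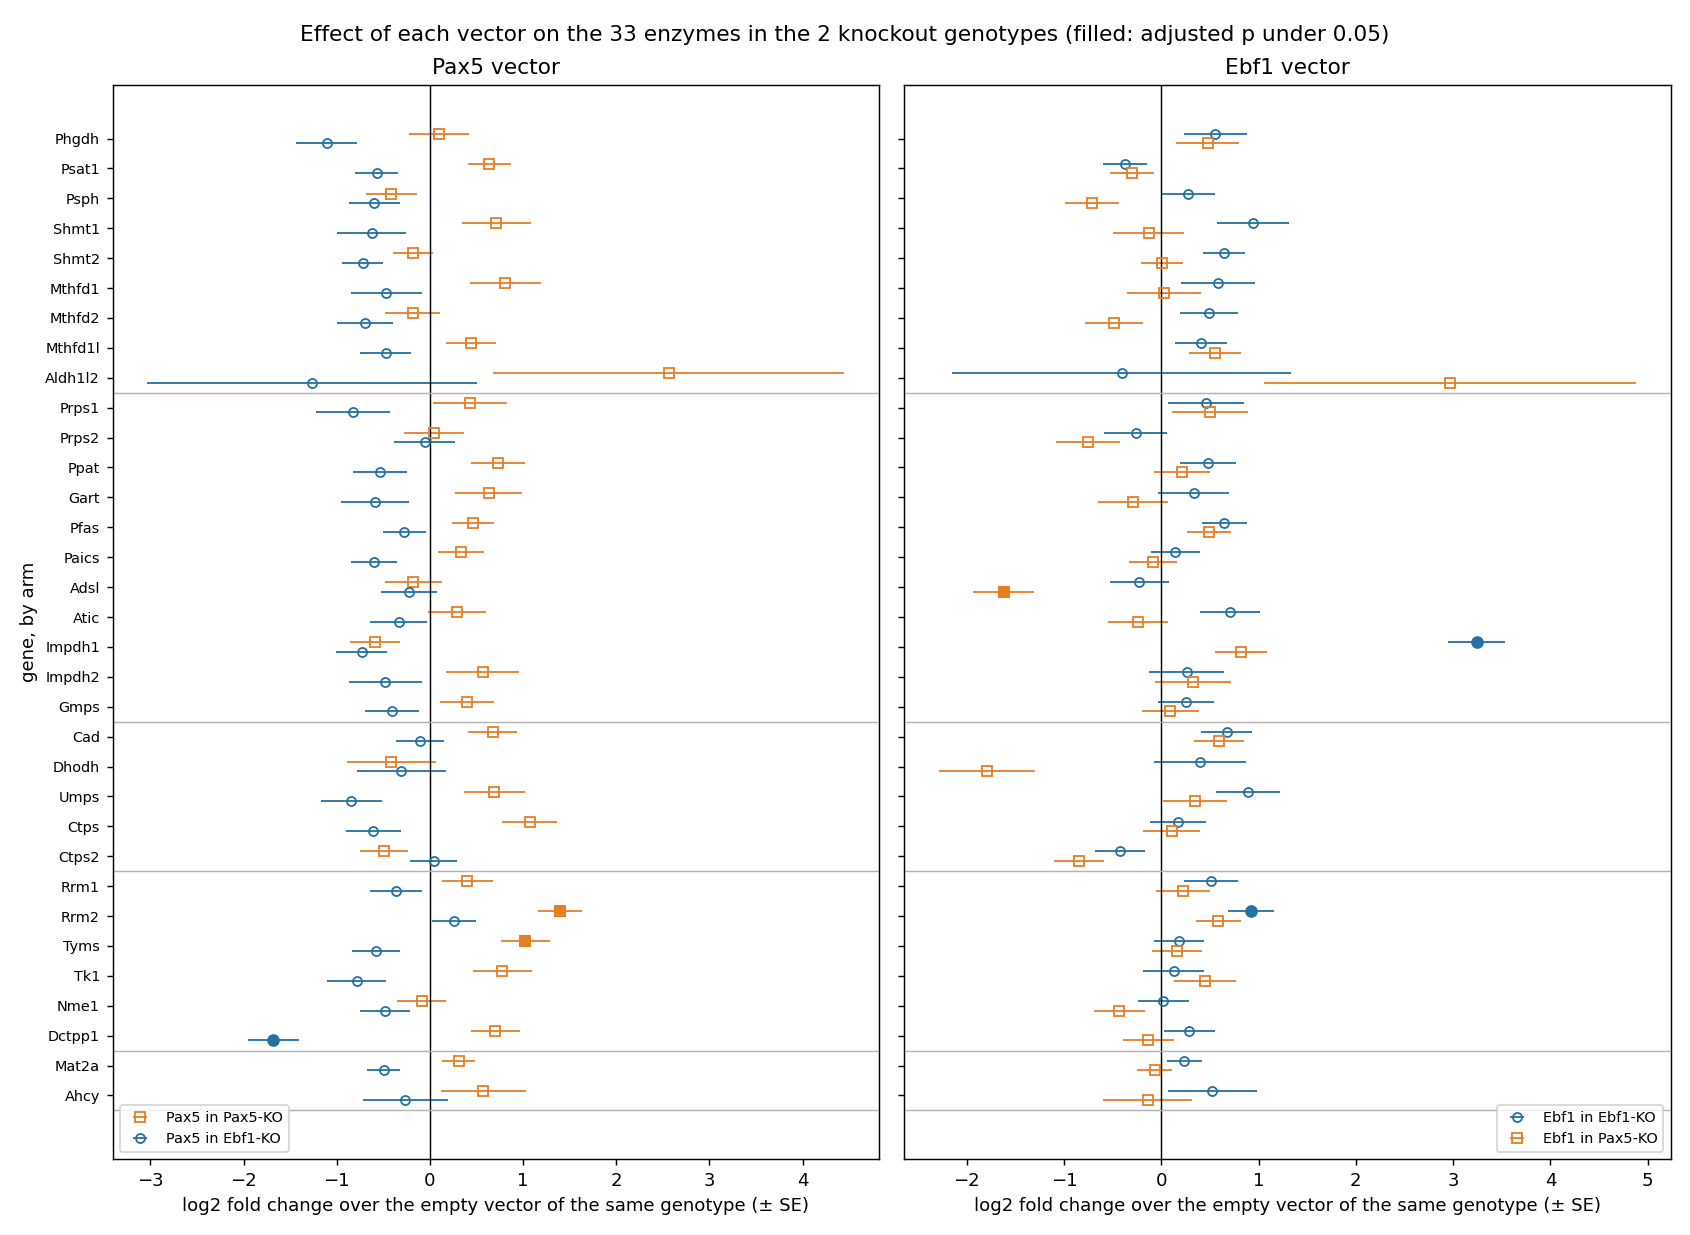
Log2 fold change (points, ± SE) of each of the 33 genes with the Pax5 vector (left) and the Ebf1 vector (right) over the empty vector of the same genotype, with filled points at an adjusted p under 0.05. With Pax5, 31 of 33 genes lie below 0 in Ebf1-KO cells and 25 above 0 in Pax5-KO cells, and with Ebf1 in Ebf1-KO cells Impdh1 stands apart at 3.24.

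The Pax5 effect was tested for a difference between genotypes. It was more positive in Pax5-KO than in Ebf1-KO cells for 31 of 33 members, with a median difference of 0.92, beside 0.00 for all genes. Dctpp1, Ctps and Tyms were the 3 that passed, where 0.735% of all genes passed in this direction, and 0 passed in the other, where 2.43% did. Among the rate-setting enzymes that did not pass, the difference was 1.27 ± 0.41 for Ppat (adjusted p = 0.121), 1.21 ± 0.46 for Phgdh (adjusted p = 0.195), 1.14 ± 0.33 for Rrm2 (adjusted p = 0.0817) and 1.05 ± 0.55 for Impdh2 (adjusted p = 0.386). It was 0.78 ± 0.37 for Cad (adjusted p = 0.312), 0.54 ± 0.30 for Shmt2 (adjusted p = 0.418) and 0.51 ± 0.42 for Mthfd2 (adjusted p = 0.634).

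Set directly against each other in Ebf1-KO cells, the Ebf1 and Pax5 vectors gave the most calls. Of the 33 members 11 were higher with Ebf1 than with Pax5, where 4.74% of all genes were, and 0 were lower, where 5.46% were. The median log2 fold change was 0.87, beside 0.02 for all genes, and 31 lay above 0. Both Ebf1 libraries lay above both Pax5 libraries for 28 members, where 29.6% of all genes did. The count of 11 became 6 without replicate 1 and 5 without replicate 2 of Ebf1-KO with Ebf1, and 7 without replicate 1 and 9 without replicate 2 of Ebf1-KO with Pax5.

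Impdh1 led these 11 at 15.7-fold (3.97 ± 0.30, adjusted p = 2.29e-06), followed by Dctpp1 (1.97 ± 0.27, adjusted p = 0.000288), and both held with each library left out. So did Shmt2 (1.37 ± 0.22, adjusted p = 0.000926). Phgdh was higher by 1.66 ± 0.33 (adjusted p = 0.00471), a call lost without replicate 1 of Ebf1-KO with Pax5 (1.32, adjusted p = 0.0638). Mthfd2 was higher by 1.19 ± 0.30 (adjusted p = 0.0196), a call lost with any 1 of the 4 libraries left out (1.02 to 1.37, adjusted p up to 0.147), and Ppat by 1.02 ± 0.29 (adjusted p = 0.038), lost with 3 of the 4, that is all but replicate 2 of Ebf1-KO with Pax5 (0.72 to 1.36, adjusted p up to 0.265). Cad (0.78 ± 0.26, adjusted p = 0.0757), Tyms (0.76 ± 0.26, adjusted p = 0.0787), Impdh2 (0.74 ± 0.39, adjusted p = 0.275) and Rrm2 (0.66 ± 0.23, adjusted p = 0.0904) did not pass.

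The other 5 of the 11 were named after their values were seen. Umps (chr16:33954782-33967038, minus strand), which completes uridine monophosphate, read 100.3 and 115 CPM with Ebf1, against 31.5 and 33.3 with Pax5 (1.74 ± 0.34, adjusted p = 0.00368), and held with each library left out. Shmt1, the cytosolic partner of Shmt2, read 43.9 and 54.9 CPM with Ebf1, against 11.3 and 22.0 with Pax5 (1.57 ± 0.38, adjusted p = 0.0152), a call lost without replicate 2 of Ebf1-KO with Ebf1 (1.39, adjusted p = 0.118) or replicate 1 of Ebf1-KO with Pax5 (1.13, adjusted p = 0.146). Atic, which closes the purine ring, read 237 and 342 CPM with Ebf1, against 121 and 159.9 with Pax5 (1.04 ± 0.31, adjusted p = 0.0477), a call lost with any 1 of the 4 left out (0.75 to 1.29, adjusted p up to 0.35). For these 3 genes the libraries of the 2 vectors did not overlap. The Atic call was also lost with DESeq2 size factors, and with scaling by total counts those of Atic, Ppat, Pfas and Mat2a were lost.

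Pfas, which adds a nitrogen to the growing purine ring, read 154 and 162 CPM with Ebf1, against 102 and 64.8 with Pax5 (0.92 ± 0.23, adjusted p = 0.0184), lost with all but replicate 1 of Ebf1-KO with Pax5 left out (0.66 to 1.25, adjusted p up to 0.162). Mat2a read 409.5 and 394 CPM with Ebf1, against 226 and 258 with Pax5 (0.73 ± 0.18, adjusted p = 0.0165), lost with all but replicate 2 of Ebf1-KO with Pax5 left out (0.61 to 0.86, adjusted p up to 0.15). Mat2a shares 876 bases of its span with Particl on the other strand, and reads from that stretch cannot be told apart.

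Between the arms the direct comparison of Ebf1 with Pax5 gave medians of 1.05 for serine and folate, 0.92 for purine, 0.78 for pyrimidine, 0.81 for deoxynucleotide and 0.76 for the methyl cycle, with 4, 4, 1, 1 and 1 members called. All 9 serine and folate genes lay above 0, with the scarcely expressed Aldh1l2 among them, and so did 10 of 11 purine genes. Prps2 of the purine arm and Ctps2 of the pyrimidine arm lay below 0. For the difference in Pax5 effect between genotypes the medians were 1.21, 0.81, 0.78, 1.35 and 0.82 in the same order. No difference between arms was tested.

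By library, each gene was set against its own mean in WT on the log2 scale and the median was taken over an arm. In Ebf1-KO cells the serine and folate median lay at 0.22 and 0.17 with Ebf1, at -1.20 and -0.72 with Pax5 and at -0.46 and -0.09 with the empty vector. The purine median lay at 0.46 and 0.79 with Ebf1, at -0.47 and -0.07 with Pax5 and at 0.06 and 0.45 with the empty vector. Both arms were thus lowest with Pax5 in these cells. The pyrimidine median lay at 0.24 and 0.56 with Ebf1 and at -0.53 and -0.22 with Pax5, and the deoxynucleotide median at 0.20 and 0.40 with Ebf1 and at -0.54 and -0.56 with Pax5. With the empty vector the pyrimidine median lay at -0.14 and 0.07 and the deoxynucleotide median at -0.07 and 0.05. In Pax5-KO with Pax5 the purine median stood at 0.52 and 0.75, the pyrimidine median at 0.59 and 0.73 and the deoxynucleotide median at 0.49 and 0.72, while the serine and folate median stood at -0.44 in 1 library and 0.32 in the other. In Pax5-KO with the empty vector the purine median already stood at 0.52 and 0.46. The pyrimidine median stood there at 0.23 and -0.13, the deoxynucleotide median at -0.07 and -0.14, and the serine and folate median at -0.22 and -0.12. The SD of these medians between the 2 libraries of a group, pooled over groups, was 0.273 for serine and folate, 0.213 for purine, 0.238 for pyrimidine and 0.125 for deoxynucleotide genes.

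The balance of the isozyme pairs differed between groups. Per kilobase, Impdh1 stood at 6.16 and 6.27 times Impdh2 in Ebf1-KO with Ebf1, at 0.533 and 0.756 times it in Ebf1-KO with Pax5, and at 0.643 and 0.915 times it in Ebf1-KO. It stood at 9.61 and 9.57 times Impdh2 in Pax5-KO with Ebf1, at 3.29 and 2.89 times it in Pax5-KO with Pax5, at 5.33 and 9.07 times it in Pax5-KO, and at 3.18 and 3.74 times it in WT. The ratio was thus lowest in Ebf1-KO with Pax5 and in Ebf1-KO. Which isozyme is the higher is not read from it, since Impdh2 may have lost reads to near-identical copies. Ctps stood at 1.88 and 2.21 times Ctps2 in Pax5-KO with Pax5, against 0.696 and 0.688 times it in Pax5-KO, and at 0.391 and 0.488 times it in Ebf1-KO with Pax5, against 0.722 and 0.668 times it in Ebf1-KO. Ctps2 shares 2608 bases of its span with S100g on the other strand.

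Prps1 lay below Prps2, both of which encode phosphoribosyl pyrophosphate synthetases, in all libraries but replicate 1 of Pax5-KO with Ebf1, where the ratio was 1.38, and the lowest ratio was 0.0453. Prps1, Prps2 and Ctps2 are X-linked. Xist, the RNA of the inactive X, read 2453 to 10430 CPM in the Pax5-KO groups and at most 29.6 in all others, so genotype and sex of the cells cannot be told apart, for these 3 genes or for any other, where Pax5-KO cells are set against WT or Ebf1-KO cells or vector effects are set against each other between the knockouts. Shmt1 stood at 0.0495 to 0.161 times Shmt2 over all libraries.

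**Figure D4:**
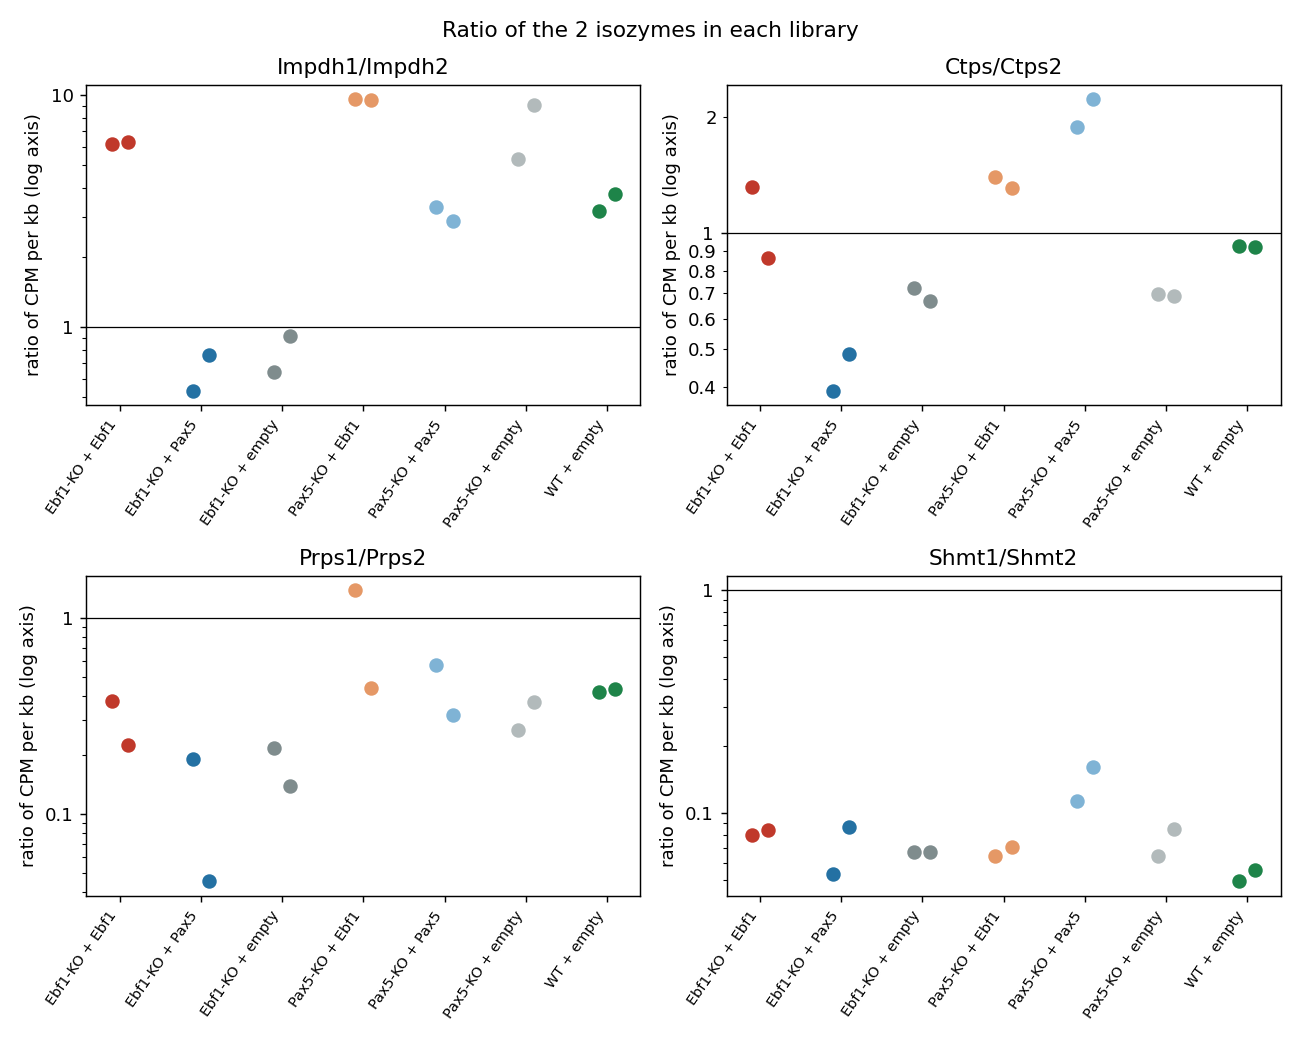
Ratio of CPM per kb of the first to the second isozyme in each library (points, log axis), by group from Ebf1-KO with Ebf1 on the left to WT on the right, for 4 pairs. Impdh1 over Impdh2 is lowest in Ebf1-KO with Pax5 and in Ebf1-KO, with an Impdh2 level that near-identical copies make uncertain, and Ctps over Ctps2 is highest in Pax5-KO with Pax5.

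Myc had the same order of vectors in Ebf1-KO cells as most members. It read 308 and 418 CPM in Ebf1-KO with Ebf1, 66.8 and 84.3 in Ebf1-KO with Pax5 and 143 and 187 in Ebf1-KO. In Pax5-KO cells it read 307 and 445 CPM with Ebf1, 499 and 670.1 with Pax5 and 277 and 344 with the empty vector, and in WT 299 and 248. It was higher with Ebf1 than with Pax5 (2.26 ± 0.26, adjusted p = 5.69e-05), and its Pax5 effect was more positive in Pax5-KO than in Ebf1-KO cells (2.04 ± 0.36, adjusted p = 0.00624). In the direct comparison, where 4.74% of all genes were higher and 5.46% lower (median 0.02), 11 of 22 MYC target genes were higher with Ebf1 and 0 lower (median 0.94), the 2 with the smallest adjusted p being Gnl3 and Nop58, which act in the nucleolus. Of 25 genes of the ATF4 programme, which answers amino acid shortage, 10 were higher and 1 lower (median 0.90). Asns, the asparagine synthetase of that programme, was higher by 1.76 ± 0.33 (adjusted p = 0.00315). Over the empty vector in Ebf1-KO cells, Ebf1 gave 1 of the 25 higher and 0 lower (median 0.43), beside 2.21% and 0.763% of all genes. With Pax5 in those cells 0 were called (median -0.50), beside 3.15% and 0.935%. With Pax5 in Pax5-KO cells 1 was higher and 1 lower (median -0.13), beside 1.64% and 2.4%. Asns there read 22.9 and 35.2 CPM, against 57.0 and 54.4 in Pax5-KO, without passing (-0.94 ± 0.33, adjusted p = 0.153). The part of Myc or ATF4 in the members' levels was not tested.

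Lists of cell cycle genes were read against the same 4.74% and 5.46% of all genes. Of 26 replication and G1/S genes 7 were higher with Ebf1 than with Pax5 and 0 lower (median 0.78), and of 18 mitosis genes 1 was higher and 0 lower (median 0.37). With Pax5 in Ebf1-KO cells, where the members' median was -0.54, that of replication genes was -0.42 with 0 called, that of mitosis genes 0.14 with 0 called, and that of MYC target genes -0.70 with 5 called lower and 0 higher, where 0.935% of all genes were lower and 3.15% higher. No difference between lists was tested. Mki67, a marker of cycling cells, read 1765 and 1901 CPM in Ebf1-KO with Pax5, against 1235 and 1424 in Ebf1-KO, without passing (0.46 ± 0.19, adjusted p = 0.215). In both knockouts Mki67 was lower than in WT, with 1235 and 1424 CPM in Ebf1-KO cells and 1761 and 1469.7 in Pax5-KO cells, against 4432 and 4022 in WT (-1.67 ± 0.19, adjusted p = 2.1e-05, in Ebf1-KO and -1.39 ± 0.19, adjusted p = 0.000138, in Pax5-KO), and Rrm2 was lower in the same groups. Mki67 read 2357 and 2556 CPM in Ebf1-KO with Ebf1, higher than in Ebf1-KO (0.89 ± 0.19, adjusted p = 0.0161), and 3247 and 2609 in Pax5-KO with Pax5, higher than in Pax5-KO (0.86 ± 0.19, adjusted p = 0.0163). Rrm2 was called higher in the same 2 comparisons. Mki67 was also higher with Ebf1 in Pax5-KO cells (0.81 ± 0.19, adjusted p = 0.0282), where Rrm2 did not pass. With Ebf1 in either knockout and with Pax5 in Pax5-KO, Mki67 was the 1 of 18 mitosis genes called. Of 26 replication genes 1, 1 and 0 were called higher there, where 2.21%, 1.75% and 1.64% of all genes were. Against WT, 5 mitosis genes were lower in Ebf1-KO and in Pax5-KO (medians -0.49 and -0.36), where 6.65% and 5% of all genes were. Of the replication genes 2 were lower in Ebf1-KO and 1 in Pax5-KO (medians -0.20 and 0.12). The part of cycling in the level of Rrm2 was not tested.

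Of 76 further genes of these pathways 69 passed the filter. In the direct comparison 10 were higher with Ebf1 than with Pax5 and 2 lower (median 0.39), beside the same 4.74% and 5.46% of all genes. Dctd, which turns dCMP into the precursor of thymidylate, was higher by 2.47 ± 0.45 (adjusted p = 0.00246), and Uck2, a uridine and cytidine kinase of salvage, by 1.44 ± 0.33 (adjusted p = 0.0116). Samhd1, which degrades deoxynucleotides, was lower (-1.27 ± 0.17, adjusted p = 0.000268). With Pax5 in Ebf1-KO cells Dctd fell (-1.82 ± 0.44, adjusted p = 0.0317) and Samhd1 rose (0.94 ± 0.17, adjusted p = 0.00573). The Pax5 effect on Samhd1 was more negative in Pax5-KO than in Ebf1-KO cells (-2.23 ± 0.25, adjusted p = 0.000243) and that on Dctd more positive (2.69 ± 0.61, adjusted p = 0.0286).

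EBF1 binding was read from a list of 17230 peaks of 320 bases that the authors called in 230-238, an Abelson-transformed pre-B cell line, which is not the cell of the RNA libraries. Scores and folds over control are the authors' values. A peak centre lay within 1000 bases of the start of 10 of the 33 members, or 30.3% (95% Wilson interval 17.4 to 47.3%, counting error only), against 27.4% of all tested genes. The members were Mthfd1l, Impdh1, Tk1, Ctps2, Adsl, Umps, Cad, Rrm1, Psph and Ahcy. Within 5000 bases there were 14 of 33 (42.4%), against 37.9%. At least 1 peak lay inside 12 members, against 34.9% of tested genes.

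Impdh1 was the 1 member with 4 peaks inside, as 2.95% of tested genes had at least 4. The peaks lay at chr6:29215980-29216300 (centre 224 bases after the start), chr6:29214383-29214703 (1821 bases after it), chr6:29213460-29213780 (2744 bases after it) and chr6:29200508-29200828 (15696 bases after it), with scores of 66, 123, 124 and 21 beside a median of 41 in the list. The second had 183.4-fold enrichment over control, beside a median of 12.3. Adsl had the highest score among the members, 127, in the peak at chr15:80948532-80948852, whose first 8 bases are the capitals at the end of the printed promoter. The closest peak of Tyms (score 79) lay 1751 bases after its start, and Dctpp1, Psat1, Phgdh, Shmt2 and Ppat had none within 5000 bases or inside. Impdh1, higher with Ebf1 in Ebf1-KO cells, and Adsl, lower with Ebf1 in Pax5-KO cells, each carried a peak within 1000 bases of the start, as 27.4% of tested genes did. Rrm2, also called higher with Ebf1 in Ebf1-KO cells, did not. Its closest peak lay 2425 bases after the start, with a score of 29. The part of EBF1 binding in these changes was not tested.

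**Figure D5:**
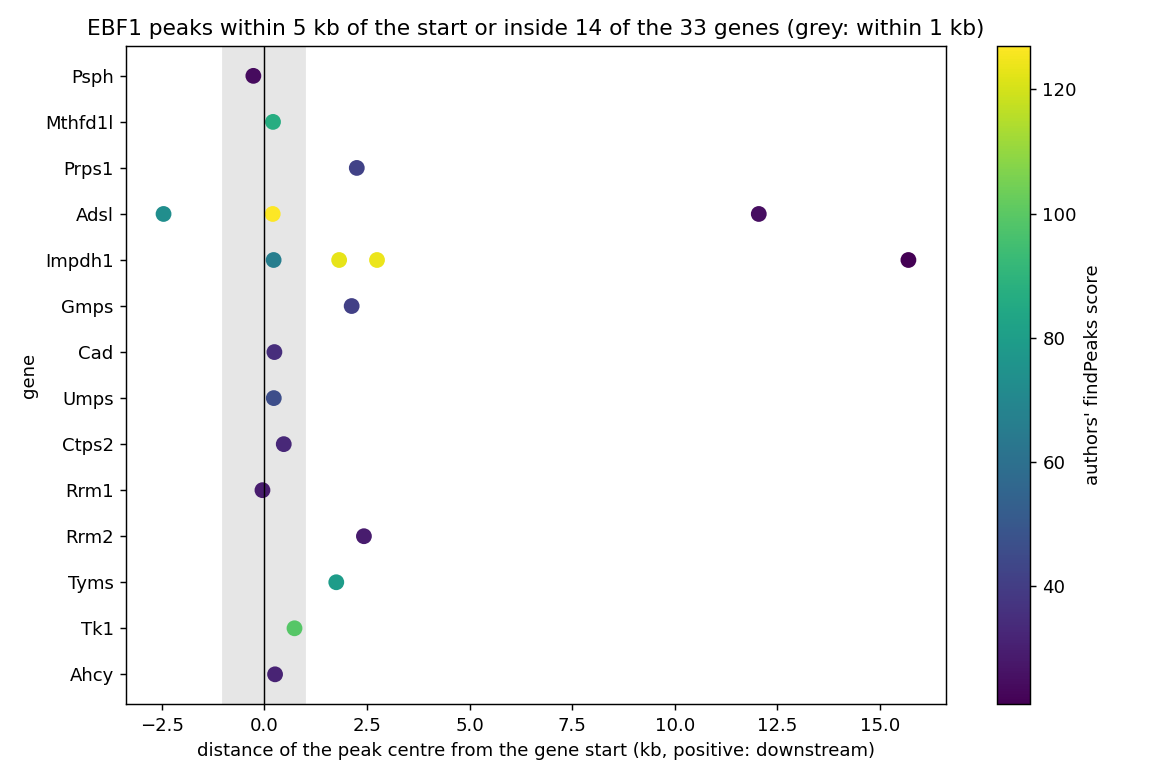
EBF1 peaks (points) in the pre-B line within 5 kb of the start of a member or inside it, by distance of the peak centre from the start (kb, positive downstream), coloured by the authors' score, with the 1 kb to either side shaded. Impdh1 has 4 peaks and Adsl 3, and their strongest score 124 and 127.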

How the data were processed

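The exon reads per gene are raw counts, which per the file headers the authors obtained with HOMER. STAR 2.6.0b-1, HOMER 4.8 and the build mm10 are named in the submitters' processing notes, and strand settings are not given in the sources used here. Columns were matched to samples by name, and 0 columns were left unused. The unnumbered Pax5-KO column was taken as replicate 1, since the other is numbered 2. A tag in the headers parts the libraries by replicate number, without its meaning being stated.

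The test was edgeR 4.0.16 in R 4.3.3, with TMM scaling, filterByExpr and a single quasi-likelihood fit to all 7 groups, with 7 residual degrees of freedom and a threshold of 0.05 on the adjusted p over 14550 genes. DESeq2 1.42.0, other scalings and filters, a replicate block, a fit of the compared groups alone and leaving out each library were the alternatives. The labels do not say that replicates were separate cultures, so the p-values reflect only how far these libraries differ, which may be technical.

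The deposited peak list gives for each peak a normalized tag count, a signal scaled by the authors, a score set by the authors' peak finder, and a fold over control, a ratio that the authors computed. It names no genes, and peaks were assigned by the gene starts of the count table. Contacts of the Myc promoter were not analysed here.

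The members and lists were chosen with earlier results of these data known. Named with full values were members called in a comparison with an empty-vector or WT group or in a difference of vector effects, and Phgdh, Shmt2, Mthfd2, Cad, Ppat, Impdh2, Tyms and Rrm2 whether called or not, whose fold changes are given for the vectors in Ebf1-KO cells, the direct comparison and the difference in Pax5 effect. Gene lists were described by counts and medians, without a test of the list.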

Additional observations from a re-analysis of the deposited data

Results flagged for a closer look

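For 4 members the effect of a vector differed between the 2 knockout genotypes in a test of the difference itself (edgeR interaction term). The Pax5 effect was more positive in Pax5-KO than in Ebf1-KO cells by 2.38 on the log2 scale for Dctpp1, 1.68 for Ctps and 1.60 for Tyms. The Ebf1 effect was more positive in Ebf1-KO than in Pax5-KO cells by 2.42 for Impdh1. Only the Dctpp1 call held with each of its 8 libraries left out in turn. The Impdh1 call was lost without replicate 1 of Ebf1-KO (2.12), the Ctps call with any library left out (1.38 to 1.95) and the Tyms call with any but replicate 1 of Ebf1-KO with Pax5 left out (1.26 to 1.96). Beside these values, early B markers, summed without Ebf1 and Pax5, were 5792 and 6654 CPM in Pax5-KO with Pax5 and 1516 and 1621 in Pax5-KO, and 1073 and 1177 in Ebf1-KO with Pax5 and 154 and 172 in Ebf1-KO, and their part in the results was not tested.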

How the results depend on the processing

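A gene that did not pass is not shown to be unchanged, and how depth or the number of libraries limits the calls was not tested. The cause of the moves below was not tested. Scaling by total counts shifted the median of all genes by -0.14 with Ebf1 in Pax5-KO cells and by -0.11 for the difference in Pax5 effect, and by less than 0.1 in the other comparisons. With Ebf1 in Pax5-KO cells it gave 32.9% of called genes as higher, against 48.7% with TMM. Of 14550 genes, scaling by total counts left 259 higher with Ebf1 in Ebf1-KO (1 member) and 191 higher with Pax5 in Pax5-KO (1 member). It left 327 lower with Ebf1 in Pax5-KO (2 members) and 505 higher with Ebf1 than with Pax5 in Ebf1-KO (7 members). DESeq2 size factors left 305 higher with Ebf1 in Ebf1-KO (1 member).

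Without the filter on low counts, genes called were 711 (Ebf1 in Ebf1-KO, 432 in the analysis reported), 1002 (Pax5 in Ebf1-KO, 594), 1230 (Ebf1 in Pax5-KO, 524), 1043 (Pax5 in Pax5-KO, 587), 978 (Ebf1-KO against Pax5-KO, 596), 940 (difference in Pax5 effect, 460) and 269 (difference in Ebf1 effect, 89). Of the 18739 genes then fitted, 1450 were higher in Ebf1-KO (4 members) and 1648 in Pax5-KO (5 members) against WT. With Ebf1 in Pax5-KO 560 were higher (1 member), with Ebf1 against Pax5 971 (18 members) and for the Pax5 effect 246 (9 members). Lower were 301 with Pax5 in Ebf1-KO (3 members) and 670 with Ebf1 in Pax5-KO (3 members).

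The DESeq2 test called 723, 1245, 1593, 1153, 1035, 1170 and 245 genes in the same 7 comparisons and 2381 with Ebf1 against Pax5 (1484 in the analysis reported). With it, of 18739 genes fitted, 1316 were lower in Ebf1-KO against WT (4 members) and 395 lower with Pax5 in Ebf1-KO (3 members). With Ebf1 in Pax5-KO 729 were higher (1 member) and 864 lower (3 members). Higher were 344 for the Pax5 effect (8 members) and 191 for the Ebf1 effect (2 members). With the compared groups alone in the fit, 955 genes were called with Ebf1 in Ebf1-KO, 67 with Ebf1 in Pax5-KO, 1066 with Pax5 in Pax5-KO, 1153 between the knockouts and 859 for the Pax5 effect. Higher were then 1554 of 13282 genes in Ebf1-KO against WT (4 members) and 860 of 13282 with Ebf1 against Pax5 (18 members). For the Pax5 effect 201 of 14084 were higher (5 members), and with Ebf1 in Pax5-KO 14 of 13016 were lower (0 members). Between the knockouts 1 member was higher in Ebf1-KO, not 0, under 6 alternatives, where 177 to 468 genes were higher.

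Deviations of same-numbered libraries from their group means correlated at -0.0586 to 0.0126 in the 6 pairs of groups with WT and at 0.0764 to 0.236 in the 15 others, of which 13 were over 0.1, so the numbers were not taken as pairs. With the replicate block 916 genes were called with Pax5 in Ebf1-KO, 821 with Ebf1 in Pax5-KO and 737 for the Pax5 effect. Of 14550 genes, 1171 were then lower in Ebf1-KO against WT (4 members) and 264 lower with Pax5 in Ebf1-KO (3 members). With Ebf1 in Pax5-KO 382 were higher (1 member) and 439 lower (2 members). Higher were 945 with Ebf1 against Pax5 (19 members) and 209 for the Pax5 effect (6 members). Phgdh and Shmt2 (Pax5 in Ebf1-KO), Cad, Rrm2 and Tyms (Ebf1 against Pax5) and Ppat and Rrm2 (Pax5 effect) passed with the block and not without it.

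With 1 library left out, genes called ranged from 1296 to 1604 (Ebf1-KO against WT, 2134 with all), 1012 to 1614 (Pax5-KO against WT, 1986), 204 to 258 (Ebf1 in Ebf1-KO), 159 to 357 (Pax5 in Ebf1-KO), 125 to 2228 (Ebf1 in Pax5-KO), 222 to 395 (Pax5 in Pax5-KO), 303 to 438 (between knockouts), 635 to 939 (Ebf1 against Pax5), 133 to 342 (Pax5 effect) and 48 to 685 (Ebf1 effect). Members higher ranged from 0 to 1 in both knockouts against WT, 1 to 1 with Ebf1 in Ebf1-KO, 0 to 1 with Pax5 in Pax5-KO, 0 to 1 between knockouts, 5 to 9 with Ebf1 against Pax5, 1 to 2 for the Pax5 effect and 0 to 1 for the Ebf1 effect, and members lower from 0 to 5 with Ebf1 in Pax5-KO. The Pax5 effect on Cad in Ebf1-KO ranged from -0.46 to 0.36. With the higher-scoring peaks alone (8852), 5 of 33 members (15.2%) had a peak at the start, against 11.5% of tested genes.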
